A study of Mus musculus with 4 samples.

Results

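The nuclear genome carries 100 protein-coding genes whose symbols place them in the mitochondrial respiratory chain, chosen by symbol out of 21883 protein-coding genes of the RefSeq table of GRCm38. Symbols beginning Nduf stand for complex I (49 genes), Sdh followed by a to d for complex II (8), Uqcr for complex III (8), Cox4 to Cox8 for complex IV (18) and Atp5 for complex V, the ATP synthase (17). The rule follows symbols and not biochemistry, so it takes in 12 assembly factors. It also takes in 8 isoforms, known from particular tissues or, for Ndufa4l2, from hypoxia. Cyc1, a subunit of complex III, is left out. Open chromatin at these genes was read from ATAC-seq, in which a transposase cuts accessible DNA, in CD4+CD8+ double-positive thymocytes sorted from C57BL/6 thymus. The WT samples carried CHAF1bfloxp/floxp and no Cre. The KO samples carried the same alleles with Cd4-cre, which is active from the double-positive stage on, so both groups share the floxed gene. Chaf1b encodes a subunit of chromatin assembly factor 1, a chaperone that places new histones on replicated DNA. Neither the mice's age nor how complete the deletion was is stated in the labels.

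Each group had 2 replicates, and 1 peak list was deposited per group, made from both. No spread between mice can be given, and no test between groups was made. The WT list held 15215 regions and the KO list 7645. The most frequent local background at a summit was 1.37 reads in WT and 1.03 in KO, a depth ratio of 0.752. At gene ends, 8 of 13 markers of double-positive thymocytes had a WT region, among them Rag1 and Cd3g, where the share of all protein-coding genes was 34.6%. In KO 1 of the 13, Cd8b1, had a region (1 of 8 also called in KO, 12.5%, exact 95% interval 0.316 to 52.7). Over all genes with a WT region 59.4% were also called in KO, above that interval, which was not tested. Cd4, Cd8a, Cd3e and Tcf7 were among the markers with a region in neither list. Of the B cell markers 1 of 5 had a WT region, and of 12 myeloid, erythroid and thymic epithelial markers 0 had one in either list.

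The respiratory chain passes electrons from NADH (complex I) and succinate (complex II) through ubiquinone to complex III, then through cytochrome c to complex IV and oxygen. Complexes I, III and IV pump protons, and complex V uses the gradient to make ATP. A small set of subunits is encoded in mitochondrial DNA. The nucleus encodes the rest, many of them by genes described here, and so must express many dispersed genes in balance. The transcription factors NRF1, GABP (an ETS factor) and YY1 are known for binding promoters of such genes.

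The promoters with the strongest accessible regions are printed here so that the calls can be read beside their DNA. For each complex, the member with the highest WT fold enrichment among those in both lists comes first, and the one among those in WT only follows. Only members whose bases just before the annotated 5′ end were held by the RefSeq table were taken, which passed over Uqcrc2, Atp5j and Atp5a1, and Ndufb6, whose region was not at its start. Each line gives the 150 bases before the 5′ end on the gene's strand, 5′ to 3′, from RefSeq for GRCm38.p6, with matches to the motifs searched below in capitals.

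Members in both lists follow.
Ndufa5, chr6:24527691-24527840, minus strand: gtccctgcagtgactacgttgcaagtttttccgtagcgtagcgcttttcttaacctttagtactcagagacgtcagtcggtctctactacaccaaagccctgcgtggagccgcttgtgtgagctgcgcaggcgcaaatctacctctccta
Sdhaf3, chr6:6955821-6955970, plus strand: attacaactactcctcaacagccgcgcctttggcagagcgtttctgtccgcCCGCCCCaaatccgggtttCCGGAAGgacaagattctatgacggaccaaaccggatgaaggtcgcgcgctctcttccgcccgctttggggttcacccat
Uqcrfs1, chr13:30545317-30545466, minus strand: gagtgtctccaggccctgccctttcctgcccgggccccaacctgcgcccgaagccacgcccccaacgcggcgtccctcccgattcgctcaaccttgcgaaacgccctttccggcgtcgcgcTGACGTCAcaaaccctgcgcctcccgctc
Cox7c, chr13:86046796-86046945, minus strand: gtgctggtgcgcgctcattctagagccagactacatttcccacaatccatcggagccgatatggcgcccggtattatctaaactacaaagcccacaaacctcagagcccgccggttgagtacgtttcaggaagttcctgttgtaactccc
Atp5c1, chr2:10080511-10080660, minus strand: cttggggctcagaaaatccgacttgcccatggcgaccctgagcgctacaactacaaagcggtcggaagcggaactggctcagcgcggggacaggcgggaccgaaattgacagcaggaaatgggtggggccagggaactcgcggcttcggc

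Members in WT only follow.
Ndufb3, chr1:58586247-58586396, plus strand: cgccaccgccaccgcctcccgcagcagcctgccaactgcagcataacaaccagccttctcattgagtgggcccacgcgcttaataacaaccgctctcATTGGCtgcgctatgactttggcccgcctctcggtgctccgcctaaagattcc
Sdhaf1, chr7:30322376-30322525, minus strand: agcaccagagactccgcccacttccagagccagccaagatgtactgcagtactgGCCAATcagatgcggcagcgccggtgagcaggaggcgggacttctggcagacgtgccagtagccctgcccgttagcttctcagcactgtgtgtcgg
Uqcrh, chr4:116075071-116075220, minus strand: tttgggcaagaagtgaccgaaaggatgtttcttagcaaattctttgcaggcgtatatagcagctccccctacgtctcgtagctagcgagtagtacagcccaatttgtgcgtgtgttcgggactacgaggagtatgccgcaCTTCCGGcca
Cox6b2, chr7:4753095-4753244, minus strand: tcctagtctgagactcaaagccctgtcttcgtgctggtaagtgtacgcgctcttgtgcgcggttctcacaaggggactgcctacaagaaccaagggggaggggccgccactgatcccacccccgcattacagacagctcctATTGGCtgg
Atp5pb, chr3:105959264-105959413, minus strand: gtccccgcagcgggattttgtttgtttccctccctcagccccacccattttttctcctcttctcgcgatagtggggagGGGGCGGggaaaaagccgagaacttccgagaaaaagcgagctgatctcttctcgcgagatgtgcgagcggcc

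Of the members, 67 had a WT region within 1000 bp of an annotated gene end, against 34.6% of all protein-coding genes. In bulk cells, a site open in fewer cells and a site less open in each cell cannot be told apart. A KO region was present at 39 members, where the share of all genes was 21.1%. All 39 were among the 67 of WT, so 39 of 67 members called in WT were also called in KO (58.2%, exact Clopper-Pearson 95% interval 45.5 to 70.2). Over all genes with a WT region 59.4% were also called in KO, so the members' share lay near the background. The other 28 members were called in WT only. Of the 33 members without a WT region 0 had a KO region, which allows a share of up to 9.09% by the limit of 3 counts (the exact interval ends at 10.6%), and the share over all genes without a WT region was 0.894%. Intervals cover counting error only, and genes are not replicates of a condition. Absence from a list means no call at that depth, not closed chromatin.

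**Figure D1:**
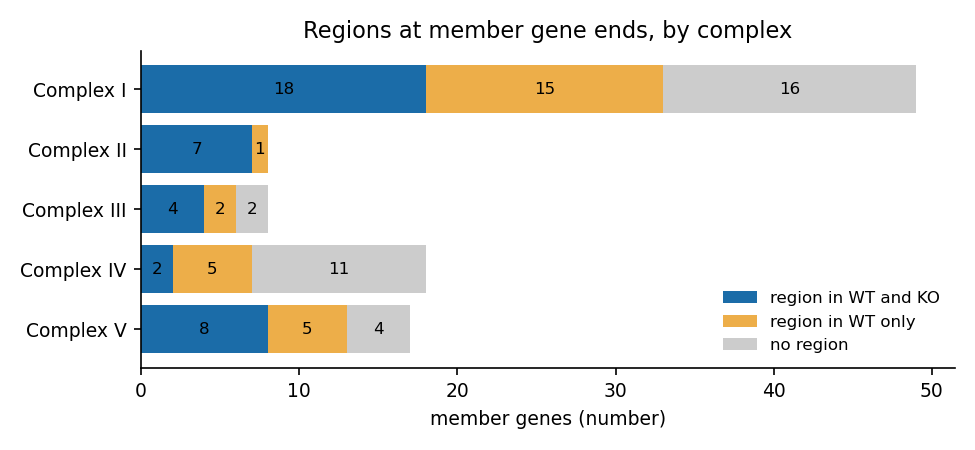
Number of member genes (x axis) of each complex (y axis) with a region at a gene end in both lists, in the WT list only, or in neither list. Complex II has no gene without a region, and complex IV has 11 of 18. Of all protein-coding genes 34.6% had a WT region and 21.1% a KO region.

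Counts of genes with a region are given by complex, and differences among the complexes were not tested. Over all protein-coding genes 34.6% had a WT region and 21.1% a KO region. Of all genes with a WT region, 59.4% were also called in KO. In complex II, 8 of 8 genes had a WT region and 7 had a KO region. In complex I the counts were 33 and 18 of 49, in complex III 6 and 4 of 8, and in complex V 13 and 8 of 17. In complex IV 7 of 18 genes had a WT region (38.9%, near the share of all genes). Of these 7 genes, 2 had a KO region (28.6%, 3.67 to 71.0). The interval for complex IV overlaps that of complex I (54.5%, 36.4 to 71.9) and that of complex II (87.5%, 47.3 to 99.7). Each of these intervals holds the 59.4% of all genes.

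Complex IV, cytochrome c oxidase, held the strongest member region, and 11 of its 18 genes had none. Cox7c, a small structural subunit, had a WT fold enrichment of 15.2 with 55 reads at the summit and a KO fold enrichment of 13.5 with 40 reads. Cox7a2l, which helps to join complexes III and IV into supercomplexes, was the other one in both lists, with 18 reads in WT and 10 in KO. Called in WT only were Cox6b2 (fold 9.0, 26 reads), Cox8a (6.74, 18 reads), Cox6a1 (5.90, 13 reads), Cox7a1 (5.24, 12 reads) and Cox5b (4.64, 10 reads). The genes with no region at an end were Cox4i1, Cox4i2, Cox5a, Cox6a2, Cox6b1, Cox6c, Cox7a2, Cox7b, Cox7b2, Cox8b and Cox8c. Of these, Cox4i2, Cox6a2, Cox7b2, Cox8b and Cox8c are isoforms of lung, muscle, heart or testis. Without the 7 tissue-restricted isoforms, 5 of 11 complex IV genes had a WT region and 2 a KO region. Over all protein-coding genes the shares were 34.6% and 21.1%.

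The tissue-restricted isoforms as a group, with Ndufa4l2 counted among them, had 3 of 8 genes with a WT region. That is 37.5%, near the 34.6% of all protein-coding genes. Of these 3 genes, 0 had a KO region (0%, 0 to 70.8). The interval holds the 59.4% of all genes with a WT region, so no trait of the isoforms can be read from it. Cox6b2, the isoform of complex IV known from testis, had its summit at position -2 bp from its own start and shared the region with a neighbour, Fam71e2. Cox7a1, the isoform of heart and skeletal muscle, had a region of 12 reads with its summit at -149 bp. The region by Ndufa4l2, a hypoxia-induced relative of Ndufa4, had the lowest fold enrichment of the members called (3.76, 13 reads) and also lay within the window of Stac3.

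Complex II, succinate dehydrogenase, is the one complex with no subunit from mitochondrial DNA. Its 4 subunits were called in both lists. Sdha, the flavoprotein, had 24 reads in WT and 15 in KO, and Sdhb, the iron-sulphur subunit, had 20 and 15. The membrane anchors Sdhc and Sdhd had 21 and 18, and 16 and 13. KO thus held 38.5% of the reads at Sdha, 42.9% at Sdhb, 46.2% at Sdhc and 44.8% at Sdhd, and each interval held the 42.9% that the depth ratio alone would give. Of the assembly factors, Sdhaf3 was the strongest, with 35 reads in WT and 23 in KO (folds 11.1 and 8.82). Sdhaf2, which attaches FAD to Sdha, had 20 and 11, and Sdhaf4 had 10 and 10. Sdhaf1, which serves the iron-sulphur clusters of Sdhb, was called in WT only (fold 6.83, 21 reads).

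Complex I, NADH dehydrogenase, is built on 7 nuclear core subunits that hold the flavin and the iron-sulphur clusters. Of these, 3 had a region, and the 3 were in both lists. Ndufs8 had 33 reads in WT and 16 in KO, Ndufv1 22 and 13, and Ndufv2 23 and 21. Ndufs1, Ndufs3 and Ndufs7 were among those with no region at an end in either list. The strongest complex I regions belonged to Ndufa5 (53 reads in WT, 29 in KO, folds 13.0 and 11.4), a subunit of the peripheral arm, to Ndufaf8 (38 and 22, folds 11.5 and 8.91), an assembly factor, and to Ndufa3 (26 and 21, folds 11.3 and 10.8), a subunit of the membrane arm. Among the 8 assembly factors, 7 had a WT region and 4 a KO region.

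Members of complex I in WT only numbered 15. The highest folds were at Ndufb6 (8.91, 30 reads), Ndufb3 and Ndufaf4 (both 7.72, 18 reads). The region by Ndufb6 lay at the far end of the gene, 9526 bp from its start and inside the windows of Topors and Smim27, and the nearest KO region was 1.14 kb away. It therefore says nothing on the Ndufb6 promoter. The others were Ndufa10, Ndufs5, Ndufa4, Ndufb7, Ndufaf3, Ndufaf6, Ndufa12, Ndufa4l2, Ndufb1, Ndufs4, Ndufa11 and Ndufb11. Their WT regions held 12 to 17 reads at the summit. Ndufa4 carries a complex I symbol, but the protein is now assigned to complex IV. Genes with no region were, beside core subunits, Ndufa1, Ndufa7, Ndufa8, Ndufa9, Ndufa13, Ndufaf1, Ndufb4b, Ndufb4c, Ndufb8, Ndufb10, Ndufc1 and Ndufc2. Ndufb4b and Ndufb4c span 471 bp and 485 bp, against 6767 bp for Ndufb4, which was called in both lists with 26 and 14 reads.

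Complex III, the cytochrome bc1 complex, had 4 genes in both lists. Uqcrc2, a core protein, had 35 reads in WT and 29 in KO, and its KO fold (11.4) stood above its WT fold (9.68). Uqcrfs1, the Rieske iron-sulphur protein, had 25 and 21 reads, with folds of 8.97 in WT and 9.32 in KO. Folds of the lists rest on different depths, so this order is not a difference in accessibility. Uqcrq had 27 and 15 reads, and Uqcr10 18 and 15. Uqcrh, the hinge protein, had 2 adjacent WT regions of 23 and 17 reads and its nearest KO region was 21.0 kb away. Uqcrb (16 reads) was also in WT only, and Uqcrc1 and Uqcr11 had no region.

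Complex V, the ATP synthase, had 8 genes in both lists. Atp5j, subunit F6 of the stalk, had a WT region of 1012 bp, the widest among the members, which spanned 2 KO regions and is shared with Gabpa. Its summit held 43 reads in WT, and the KO summits held 21 and 16. Atp5c1 (30 and 22 reads) and Atp5b (28 and 20) encode the gamma and the catalytic beta subunit. Of the 3 genes for the c ring, Atp5g1 (23 and 12) and Atp5g2 (18 and 8) were in both lists and Atp5g3 had no region. Atp5a1, the alpha subunit, was in WT only (fold 6.83, 18 reads), as were Atp5pb (6.57, 17 reads), Atp5e (6.25, 15 reads), Atp5j2 (5.56, 13 reads) and Atp5mpl (5.48, 12 reads). Atp5d, Atp5l and Atp5o had no region at a gene end. The remaining members in both lists were Atp5md (18 and 16), Atp5h and Atp5k (13 and 11 each).

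**Figure D2:**
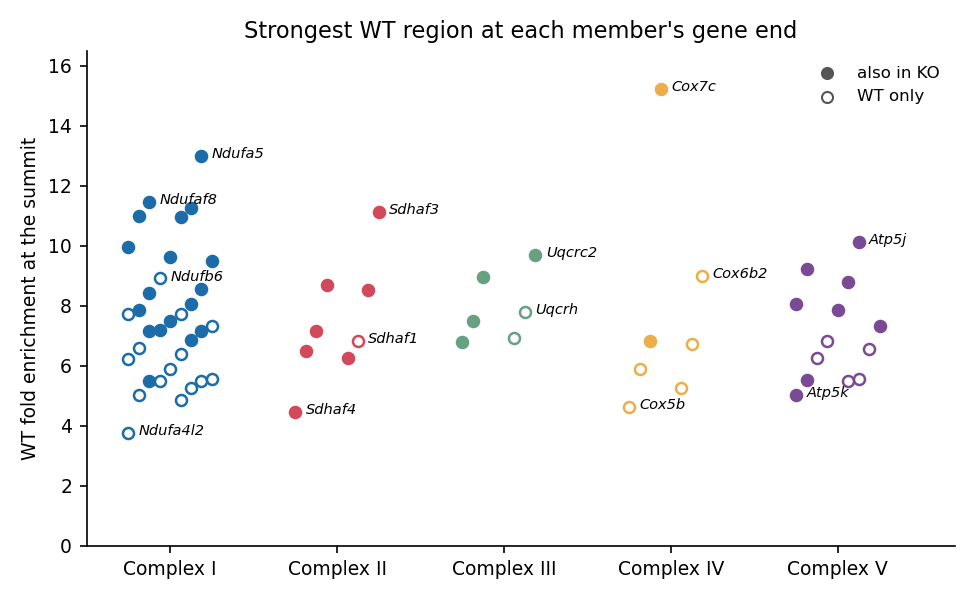
WT fold enrichment at the summit (y axis, the authors' value) of the strongest region at each of the 67 members with a WT region, by complex (x axis; spread within a complex has no meaning). Filled points are also called in KO and open points in WT only; Cox7c is highest at 15.2, and the highest open point is Cox6b2 at 9.0.

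Members in both lists had the stronger WT regions. Their WT fold enrichment had a median of 8.05 (4.47 to 15.2), against 6.23 (3.76 to 9.0) in the 28 members of WT only. Median reads at the WT summit were 23 and 16. The same order held over all genes, with medians of 8.58 and 5.90. All genes with a WT region were split by WT fold enrichment into 3 bins of near equal size. In the lowest bin (up to 6.29), 5 of 20 members were also called in KO (25%, 8.66 to 49.1), where the share of all genes was 27.3%. In the middle bin it was 16 of 27 (59.3%, 38.8 to 77.6), against 59.2%, and in the highest bin (8.46 and above) 18 of 20 (90%, 68.3 to 98.8), against 91.7%. In each bin the interval of the members held the share of all genes.

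A split by summit reads gave like shares. Reads were solved from the same fold and p, so this split is not separate support. The cut at 20 reads was set after the values were seen. Of 31 members with 20 or more reads at the WT summit, 27 were called in KO (87.1%, 70.2 to 96.4), against 84.0% of 4141 genes. Of 36 members with fewer reads, 12 were (33.3%, 18.6 to 51.0), against 29.6% of 3427 genes. The 4 exceptions among the deeper members were Ndufb6, Cox6b2, Uqcrh and Sdhaf1. Scaled by the depth ratio, their WT reads correspond to 22.6, 19.6, 17.3 and 15.8 KO reads. The KO list calls regions from 7 reads on at the genome background and had a median of 15. The 4 exceptions had WT local backgrounds of 2.48, 2.0, 2.08 and 2.22 reads, above the most frequent 1.37. The lowest count of 7 therefore need not hold at these sites. At the other 24 members of WT only, scaled reads ran from 7.52 at Cox5b to 13.5 at Ndufb3, Ndufaf4, Cox8a and Atp5a1. Depth differed between the lists with genotype, and its part in these calls cannot be told apart from that of the deletion.

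Summit reads were compared at 38 regions that had a single counterpart in the other list, which leaves out Atp5j. Each list was read at its own summit, and the summits of a pair lay a median of 25 bp apart. They were more than 100 bp apart at Ndufv2 (568 bp), Cox7a2l (276 bp), Ndufb5 (203 bp) and Sdhaf4 (126 bp), so these 4 pairs set different positions side by side. The 38 regions held 935 reads in WT and 637 in KO, so KO had 40.5% (38.1 to 43.0), and depth alone would give 42.9%. Over all 3776 such gene-end regions the share was 38.5% (38.2 to 38.7). In the 34 member pairs with summits within 100 bp, a limit added after the data were seen, KO had 40% (37.5 to 42.6), an interval that ends below the depth share, against 38.5% (38.3 to 38.8) in 3248 gene-end pairs. These regions had to reach the calling threshold in KO to be compared at all, so low KO counts are missing from them. With at least 40 summed reads, 17 member regions had 39.8% (36.6 to 43.0) and 2156 gene-end regions 37.6% (37.3 to 37.9). The interval of each of the 38 member regions held the depth share. By complex the KO share was 39.2% in I, 41.8% in II, 43.2% in III, 40.7% in IV and 41.2% in V, and the intervals of II to V held the depth share. That of complex I, 35.8 to 42.8, ended just below it.

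Among the regions with at least 40 summed reads, the lowest KO shares were at Ndufs8 (32.7%, 19.9 to 47.5), Ndufa6 (33.3%, 20 to 49.0) and Ndufb4 (35.0%, 20.6 to 51.7). Ndufa6, an accessory subunit, had 30 reads in WT and 15 in KO. The highest were at Ndufv2 (47.7%, 32.5 to 63.3), whose summits lay at -21 bp from the start in WT and -589 bp in KO, Uqcrfs1 (45.7%, 30.9 to 61.0) and Uqcrc2 (45.3%, 32.8 to 58.3). These intervals overlap, so no order among the members was detectable at this depth. In regions with fewer reads the ends were Ndufv3 (26 reads in WT, 10 in KO, 27.8%) and Ndufb5 (15 and 17, 53.1%), the latter again read at different positions, -19 bp in WT and -222 bp in KO.

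**Figure D3:**
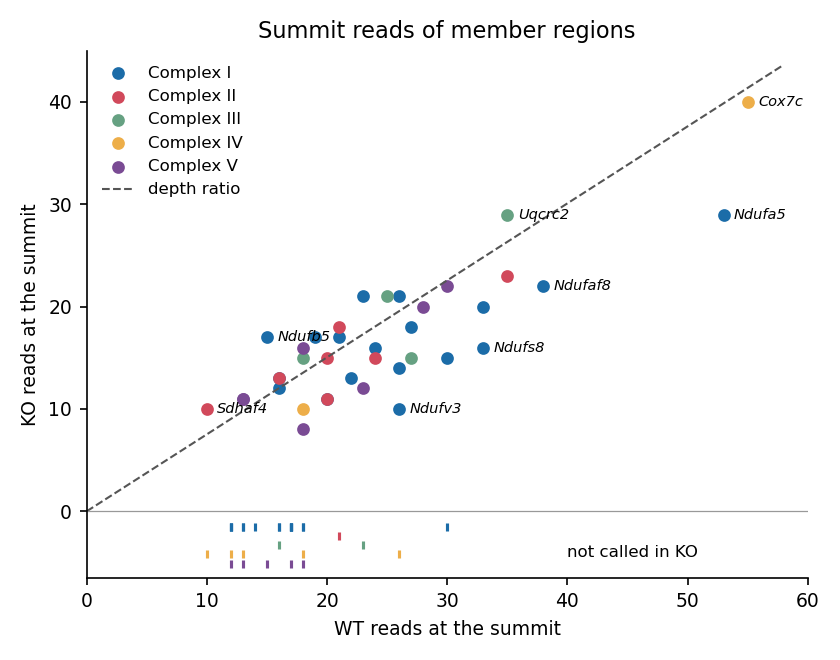
Reads at the summit in WT (x axis) and KO (y axis) for the 38 member regions with 1 counterpart in each list, coloured by complex; the dashed line is the depth ratio of 0.752. Ticks under the zero line give the WT reads of the 28 members in WT only, which lie between 10 and 30 reads.

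Regions sat at the gene starts. RefSeq promoter windows, which cover 250 bases before to 50 after a start, were matched for 82 of the 100 members. Those without a match included Atp5a1, Atp5mpl, Cox4i1, Cox4i2, Cox6a2, Cox6c, Cox8c, Ndufa2, Ndufa4l2, Ndufaf6, Ndufb4c, Ndufb9, Ndufs1, Sdhc, Uqcrb, Uqcrc2 and Uqcrq. Of 61 WT pairings of a region and a member with a known start, 60 had the summit within 1000 bp of it, Ndufb6 being the exception (98.4%, against 89.6% over all genes). With positions before the start written as negative, their median was -56.5 bp, and 48 of the 60 lay within 200 bp (80%, against 75.3%). In KO 35 of 35 lay within 1000 bp (91.5% over all genes), with a median of -69 bp, and 29 within 200 bp (82.9%, against 77.9%). Over all genes the medians were -47 bp in WT and -60 bp in KO. Member regions had a median width of 385 bp in WT and 308 bp in KO, where all gene-end regions had 364 bp and 305 bp.

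**Figure D4:**
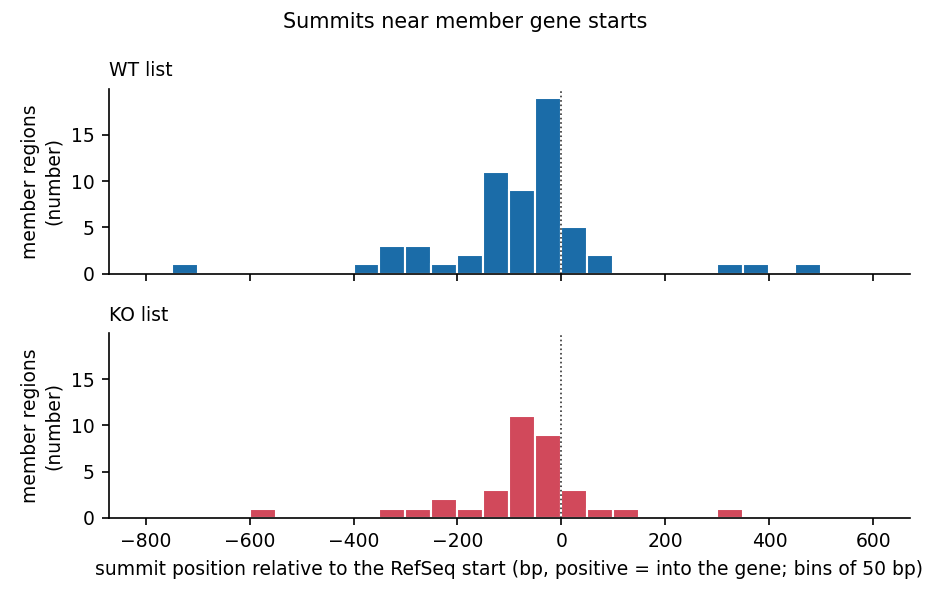
Number of member regions (y axis) by the position of the summit relative to the nearest RefSeq start (x axis, bp, bins of 50 bp) in the WT list (60 pairings) and the KO list (35). Both lists peak just before the start, with medians of -56.5 and -69 bp.

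Some members without a gene-end region had one at an internal start. Cox7a2 has a RefSeq start inside its annotated span, and a WT region (chromosome 9, 79759620 to 79760116, fold 9.02, 23 reads) and a KO region (79759638 to 79759866, fold 4.92, 9 reads) lay there. At Atp5d a WT region of 15 reads lay by 2 such starts (chromosome 10, 80142214 to 80142426). A second Atp5d region, further upstream, was called in WT with 14 reads and in KO with 15. With whole genes and 1000 bp on either side, 70 members had a WT region and 42 a KO region.

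Many members share their region with a neighbouring gene. This held for 35 of the 67 members with a WT region (52.2%, 39.7 to 64.6), against 30.4% of 7568 genes. In 20 of the 35 the neighbour starts on the opposite strand within 1000 bp, as with Atp5c1 and Kin, Ndufaf2 and Ercc8, Ndufa5 and Asb15, Sdhd and Timm8b, Sdha and Ccdc127, and Ndufb5 and Mrpl47. Where a start was missing, as for the pairs of Sdhc, Ndufaf7, Ndufa2 and Atp5a1, the strands were not compared, so 20 is a lower count. No such share was made over all genes, so the count cannot be called a trait of the members. Of the sharing members 21 of 35 were also in KO (60%, 42.1 to 76.1), and of the others 18 of 32 (56.3%, 37.7 to 73.6). In all genes these shares were 61.7% and 58.4%. A shared region cannot be assigned to 1 gene.

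Promoter windows were searched on both strands for short motifs: NRF1 as CGCATGCG, ETS/GABP as CCGGAAG, YY1 as ATGGCGGC, NF-Y as GCCAAT, Sp factors as GGGGCGG, the cyclic AMP response element (CRE) as TGACGTCA and the E-box as CACGTG. None of these words contains another. A match is a description of the letters and not a binding site. The NRF1 word was present in 11 of 87 windows of the 82 members (12.6%, 6.48 to 21.5), in 4.26% of the 7653 windows of all genes with a WT region and in 2.52% of all 21262 windows. The ETS word was in 25.3% of member windows, 20.5% of windows of genes with a WT region and 11.6% of all. The Sp word was in 29.9%, 44.6% and 30.9%. Of the 87 member windows 27 belong to members in neither list, so members and genes with a WT region are unlike sets here. By class, the Sp word was in 35.1% of windows of members in both lists, 39.1% in WT only and 14.8% in neither. Over all genes these classes had 47.1%, 40.9% and 23.0%. The E-box and CRE words stood at 8.05% and 4.60% of member windows, against 10.4% and 3.49% of windows of genes with a WT region.

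The NRF1 matches are shown because NRF1 is known for such promoters and its share stood furthest above the backgrounds as a ratio, an order seen after the search and not tested. The ETS, YY1, NF-Y and CRE words also stood above both. Each line gives up to 11 bases on either side of the word, which is in capitals, on the gene's strand, 5′ to 3′ (RefSeq, GRCm38.p6).
Atp5g2, chr15:102671070-102671099, minus strand: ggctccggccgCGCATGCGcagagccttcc
Atp5j, chr16:84835105-84835134, minus strand: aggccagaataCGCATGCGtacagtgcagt
Atp5k, chr5:108434430-108434459, minus strand: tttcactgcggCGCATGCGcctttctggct
Atp5l, chr9:44920965-44920992, minus strand: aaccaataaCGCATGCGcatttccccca
Cox6a1, chr5:115349101-115349130, minus strand: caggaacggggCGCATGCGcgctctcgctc
Ndufa11, chr17:56717692-56717721, plus strand: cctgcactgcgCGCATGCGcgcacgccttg
Ndufa8, chr2:36049329-36049358, minus strand: gtcgctggagaCGCATGCGcagatggtacc
Ndufaf4, chr4:24897960-24897989, plus strand: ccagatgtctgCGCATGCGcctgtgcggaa
Ndufaf5, chr2:140170652-140170681, plus strand: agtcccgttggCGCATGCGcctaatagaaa
Uqcr11, chr10:80406808-80406837, minus strand: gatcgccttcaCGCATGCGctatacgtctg
Uqcrc1, chr9:108936668-108936697, plus strand: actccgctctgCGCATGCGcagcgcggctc

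These 11 members did not fall in 1 class of calls. Atp5g2, Atp5j, Atp5k and Ndufaf5 were in both lists, Cox6a1, Ndufa11 and Ndufaf4 in WT only, and Atp5l, Ndufa8, Uqcr11 and Uqcrc1 in neither. The Ndufa11 region, with its summit at -714 bp, did not reach the window that holds its match. The match of Ndufaf5 lay 18 bases and that of Uqcrc1 32 bases into the transcribed part. That of Uqcr11 began at -5 and ran across the start, and the other 8 lay before the start of their window. Atp5j has a further RefSeq start, and its match lies downstream of that one. In complex II 0 of 7 windows held the NRF1 word, while 5 of 7 held the ETS word, as in the Sdhaf3 promoter printed above. Complex I had 8 of the 9 windows with the YY1 word, 2 of them of Ndufa7, and Sdhaf2 had the other one. That made 10.3% of member windows, against 5.06% of windows of genes with a WT region. In the 250 bases before the start alone it was 3.45% (3 windows), against 2.03%.

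**Figure D5:**
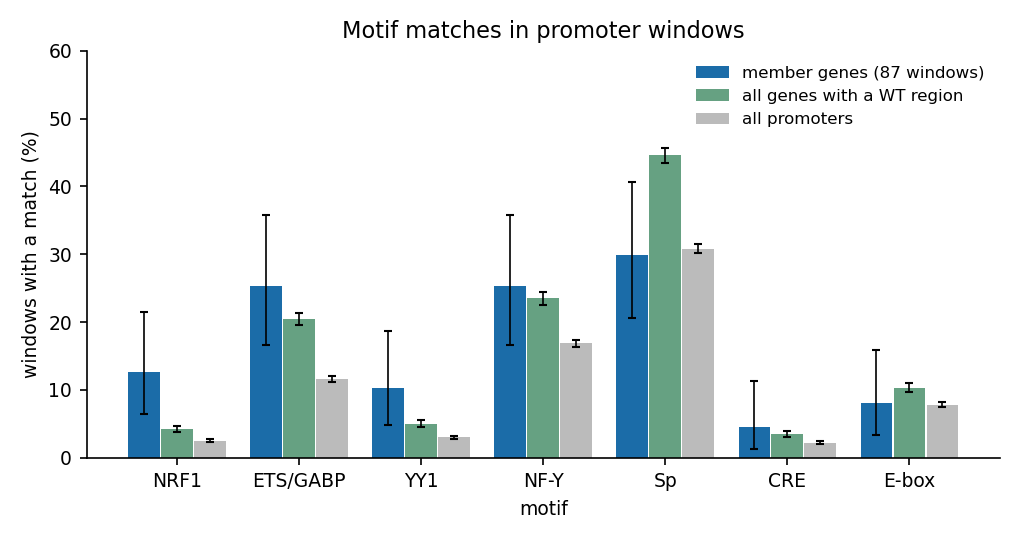
Share of promoter windows with a motif match (y axis, %) for 7 motifs (x axis), in member genes, in all genes with a WT region and in all promoters; error bars are exact 95% intervals. The NRF1 bars stand at 12.6%, 4.26% and 2.52%, and the Sp bars at 29.9%, 44.6% and 30.9%. The member windows include 27 of members in neither list.

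The share of member windows with the NF-Y word, the CCAAT box, fell from both lists to WT only to neither. The word was picked out among those searched for this order, which was not tested. It was present in 15 of 37 windows of members in both lists (40.5%, 24.8 to 57.9). In WT only it was in 6 of 23 (26.1%, 10.2 to 48.4) and in neither in 1 of 27 (3.70%, 0.0937 to 19.0). The intervals of both lists and WT only overlap. The windows of Atp5c1 overlap and hold the same match, at -240 and -162 bp from their starts, so it is counted in each. Over all genes the same classes had 28.5%, 16.3% and 13.0%. GC content moved with the same classes, with medians of 60%, 59% and 55.3% in members and 61.7%, 60.7% and 53.0% in all genes, and its part was not tested.

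Other genes of the pathway showed like shares. Beside them, 34.6% of all genes had a WT region, and 59.4% of these were also called in KO. In the tricarboxylic acid cycle, which supplies NADH and succinate, 10 of 13 genes had a WT region and 6 of these a KO region (60%, 26.2 to 87.8). Fh1, fumarase, had 51 reads in WT and 34 in KO, and Cs, citrate synthase, 22 and 8, while Suclg1 had a region in KO only (10 reads). Of 8 electron carriers and complex III genes outside the symbol rule, 6 had a WT region and 4 a KO region: Cycs (cytochrome c; 20 and 11 reads), Etfa (26 and 18), Etfb (25 and 15) and Etfdh (51 and 29). Of 30 further assembly factors 25 had a WT region and 16 of these a KO region (64.0%, 42.5 to 82), with the complex I factors Tmem126b (44 and 33) and Timmdc1 (36 and 25) among the strongest.

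Nuclear regulators of these genes were called in 11 of 14 cases in WT, and 9 of the 11 were also in KO (81.8%, 48.2 to 97.7). That interval holds the 59.4% of all genes with a WT region, and 34.6% of all genes had a WT region. Tfb1m (47 reads in WT, 37 in KO) and Tfb2m (24 and 20), which act on mitochondrial ribosomal RNA and transcription, were in both lists. So were Tfam (30 and 12), which packages mitochondrial DNA, Yy1 (20 and 15), Esrra (29 and 20) and Pprc1 (22 and 14). Nrf1 (19 reads) and Polrmt (26 reads), the mitochondrial RNA polymerase, were in WT only, and Ppargc1a, Polg and Gabpb1 had no region.

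Gene sets of like function were close to the respiratory chain genes. A WT region was found at 46 of 78 mitochondrial ribosomal protein genes (59.0%), 60 of 101 cytosolic ribosomal protein genes (59.4%) and 29 of 51 proteasome genes (56.9%), against 67.0% of the members. Of these, 52.2% (36.9 to 67.1), 53.3% (40 to 66.3) and 48.3% (29.4 to 67.5) were also called in KO. All 3 intervals hold the members' 58.2% and the 59.4% of all genes, so no difference was detectable at these numbers.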

How the data were processed

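ATAC-seq of 4 samples gave 2 lists, as the series' design text says that both replicates of a group went into 1 file. Per the submitters' processing notes, MACS2 2.1.4 and deepTools 3.4.1 were used, with Bowtie2, Trim Galore, FastQC, Picard and GATK, on the build mm10, without order or settings. The deposited lists give a score, which equals the whole part of 10 times the -log10 q on every line. The authors' fold enrichment and -log10 of p and q stand beside it.

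Reads at a summit were solved from the deposited fold, taken as (reads + 1) / (background + 1), and from p, taken as a Poisson tail. Whole reads returned the deposited p on 100% of lines of both lists, within 0.001 in -log10 p. The most frequent background was taken as relative depth; sequencing totals were not used here. PCR copies are not independent molecules, so all intervals are for counting error only. Replicates could not be compared.

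Regions were joined to RefSeq genes (GRCm38.p6, the assembly behind mm10) where they overlapped by at least 1 bp the 1000 bp before or after either gene end; exons were not used here. The named genes were, for each complex, the highest WT folds in both lists and in WT only, core subunits, complex II and the extremes of the KO share. Other members appear by name and class, and several with values, which was decided after seeing them, as were the internal starts, the limit on summit distance, the split at 20 reads and the NRF1 sites. Members and lists were chosen with earlier results of these data known. Steps were tested on simulated data. Tables were made with pandas 2.3.3 and numpy 2.4.6 in Python 3.11.15, intervals with scipy 1.17.1 and plots with matplotlib 3.10.9. Values of some single genes are not reported here.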

Additional observations from a re-analysis of the deposited data

How the results depend on the processing

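The share of WT-called members also called in KO, 58.2%, stayed between 52.4% and 62.1% with windows of 500 and 2000 bp, whole genes, annotated starts (added after the data were seen), a -log10 q of at least 3 or 5, both overlap rules, autosomes alone and without members that share a region. With the WT list shortened to the 7645 regions of the KO list it was 73.3% by fold enrichment and 79.1% by q, where all genes had 77.8% and 79.6%; fewer weak WT regions enter by construction. The number of members with a WT region went from 58 to 70 and with a KO region from 33 to 42. The KO share of reads stayed between 39.8% and 41.1%, with the pairs of near summits (added after the data were seen) at 40%. In the 250 bases before the start alone, the YY1 word was in 3.45% of member windows against 10.3% (2.03% of windows of genes with a WT region), and the NRF1 word in 9.20%.

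No paired analysis was possible because each list pools both replicates of its group, and no replicate was left out for the same reason. Depth limits the calls at members with few reads: the interval of the KO share of reads ran from 32.0 to 52.7% at Cox7c, the deepest region, and from 27.2 to 72.8% at Sdhaf4, the shallowest.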

Other observations

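Several members share an accessible region with a gene that also serves mitochondria, a grouping made after the pairs were seen. Ndufb5 shares its region with Mrpl47 and Ndufs6 with Mrpl36, both genes for mitochondrial ribosomal proteins, and Sdhd with Timm8b, a chaperone of mitochondrial protein import. Their WT regions held 15, 27 and 16 reads, and their KO regions 17, 18 and 13. The WT and KO summits at Ndufb5 lay 203 bp apart, so its counts set different positions side by side. Atp5j shares its region with Gabpa, which encodes the DNA-binding subunit of GABP. Atp5j has more than 1 RefSeq start in that region. The window of the start further into the gene holds the NRF1 word, at position -147 from that start, and the ETS word, at -61. The window of the other start holds the Sp word alone of those searched.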
